A study of Mus musculus with 2 samples.

Results

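Complement genes were examined in single cells of 2 male wildtype C57BL/6J mice. The 9 genes were taken by symbol from the 56953 genes of the deposited matrices: C3, C4b, C7, C1qa, C1ra, Cfb, Cfd, Serping1 and Cd55. Each was described across the cell groups formed by barcodes with at least 1000 unique molecular identifiers (UMIs). The tissue was labelled olfactory epithelium, was digested with enzymes, and gave 1 droplet library per mouse. Both animals were wildtype, no treatment or age was given in the labels, and the comparisons below are between cell groups of the same 2 mice. All levels are counts-per-million values (CPM), the UMIs of a gene summed per mouse and cell group and scaled by all UMIs of that group. The identifiers in the files are ENSMUSG00000024164 (C3), ENSMUSG00000073418 (C4b), ENSMUSG00000079105 (C7), ENSMUSG00000036887 (C1qa), ENSMUSG00000055172 (C1ra), ENSMUSG00000090231 (Cfb), ENSMUSG00000061780 (Cfd), ENSMUSG00000023224 (Serping1) and ENSMUSG00000026399 (Cd55).

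Complement is a cascade of serum and tissue proteins that tags targets for removal. The classical arm starts when C1q binds a target and its proteases C1r and C1s cut C4 and C2. The alternative arm uses factor B and factor D to cut more C3, and both arms lead through C3 to the membrane attack complex, of which C7 is a part. Serping1 (C1 inhibitor) blocks C1r and C1s, and Cd55 (decay-accelerating factor) breaks up the C3-cutting enzymes on the surface of the cells that carry it. Liver makes most of the serum proteins, while fibroblasts and macrophages are known local sources.

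After filtering, 12537 cells of mouse 1 and 8930 of mouse 2 were kept, with a median of 3879 and 5244.5 UMIs per cell. The cells fell into 29 clusters, built without the complement genes and named from marker lists. Fibroblast-like cells (4360 and 3532) and chondrocyte-like cells (5119 and 3082) were the 2 largest classes. Smaller classes were tenocyte-like, pericyte or smooth muscle-like, blood and lymphatic endothelial-like, Schwann-like, skeletal muscle-like, epithelial-like and immune cells. Markers that define the labelled tissue were close to absent. The 5 markers of mature olfactory neurons summed to 3.31 and 4.03 CPM over all cells, and the 5 markers of sustentacular cells to 1.21 and 2.09 CPM. The mice shared 387 cell barcodes (3.09% and 4.33% of their cells), and 50.6% of these fell in the same class in both, against 29.3% from the class shares alone. Without the shared barcodes, 1 of the called differences between classes given below was no longer called, and its values are given where it stands.

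RNA outside cells carried the same genes. In barcodes with at most 50 UMIs, Serping1 stood at 806 CPM in mouse 1 and 734 CPM in mouse 2, C4b at 329 and 271 CPM, C3 at 188 and 123 CPM and C1ra at 112 CPM in both. The other members there ranged from 0 for Cfd to 25.8 CPM for Cd55 in mouse 1. A share of these reads can enter any droplet, so T or NK-like cells are given as a reference. Whether these cells make any of this RNA themselves was not tested. In them C3 was at 22.7 and 9.34 CPM, C4b at 6.81 and 18.7 CPM and Serping1 at 109 and 70.0 CPM.

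C1qa encodes 1 chain of C1q, the recognition part of the classical arm, and was almost restricted to myeloid cells. Macrophage-like cells held C1qa at 2850 CPM in mouse 1 (84 UMIs in 10 cells) and 2633 CPM in mouse 2 (538 UMIs in 46 cells). In fibroblast-like cells it was at 0.425 and 0.727 CPM, below the near-empty barcodes of the same mouse (5.00 and 15.1 CPM). After thinning each cell to 1000 UMIs, 8 of the 10 macrophage-like cells in mouse 1 had a C1qa UMI (exact binomial 95% interval of the share 44.4 to 97.5%). In mouse 2 it was 38 of 46, or 82.6% (68.6 to 92.2%). Among fibroblast-like cells the share was 0.0688% and 0.113%. No C1qa UMI was read in the mast-like, Schwann-like, pericyte or endothelial-like classes of either mouse.

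C1qa was also read, at lower levels, in 4 clusters that did not pass the rule for a name. Cluster 27, whose leading genes included Cd74 and Pf4 and which also carried the 5 fibroblast markers at 13332 and 19732 CPM, stood at 340 and 343 CPM. Clusters 13 and 25, led by the antigen-presentation genes Cd74 and H2-Aa, held 260 and 155 CPM in the former and 159 and 140 CPM in the latter. Cluster 26, led by Lyz2, S100a9 and Elane, stood at 71.1 and 44.9 CPM. After thinning, 9.09% and 8.33% of the cells of cluster 27 had a C1qa UMI, and 20.5% and 10% of those of cluster 13. In cluster 25 the share was 15.2% and 14.3%, and in cluster 26 4% and 6.67%. A minority of the cells of each cluster thus carried these levels. The other chains of C1q followed the same pattern: in macrophage-like cells C1qb was at 2850 and 3039 CPM, and C1qc at 2545 and 2271 CPM. The unnamed clusters together held 59.1% of the C1qa UMIs of mouse 1 and 18.1% of those of mouse 2, while macrophage-like cells held 33.3% and 79.7%. The mice thus differed in which group gave most C1qa UMIs, while the levels within macrophage-like cells were close.

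The proteases that C1q activates were read in different cells from C1qa. C1ra, which encodes a C1r protease, was highest in fibroblast-like cells (267 and 200 CPM), followed by tenocyte-like (123 and 81.7 CPM) and pericyte or smooth muscle-like cells (112 and 82.8 CPM). Its next class by mean, blood endothelial-like cells, held 82.4 CPM in mouse 1 and 17.2 CPM in mouse 2. In macrophage-like cells there was no C1ra UMI in mouse 1 and 1 in mouse 2. Fibroblast-like cells held 54.2% and 49.9% of all C1ra UMIs. C1s1, the partner protease, was read at 315 and 206 CPM in fibroblast-like cells and at 313 and 367 CPM in pericyte or smooth muscle-like cells. C1ra has a near-identical copy, C1rb (41.8 and 31.9 CPM in fibroblast-like cells), so reads may have been split or lost between them.

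C4b encodes C4, the first substrate of the C1 proteases, and its highest class was chondrocyte-like cells. These held 309 CPM in mouse 1 and 307 CPM in mouse 2, against 285 and 142 CPM in fibroblast-like cells. Chondrocyte-like cells thus agreed between the mice while fibroblast-like cells did not, and the 2 classes were close to each other in mouse 1. Chondrocyte-like cells held 67.9% and 78.5% of all C4b UMIs while making up 40.8% and 34.5% of the cells. They also held 39192702 of the 65954668 UMIs of all genes in mouse 1 and 36574757 of 63034633 in mouse 2. Their share of the cells thus understates their share of all UMIs. Because they are deeper (medians of 6766 and 10911 UMIs against 2493 and 3174), shares of cells were compared after thinning. A C4b UMI was then read in 19.8% (18.7 to 20.9%) and 21.1% (19.7 to 22.6%) of chondrocyte-like cells and in 872 of the 4360 fibroblast-like cells of mouse 1 (18.8 to 21.2%) and 10.2% (9.24 to 11.3%) of those of mouse 2. Without thinning the chondrocyte-like shares were 52.2% and 57.9%, and the fibroblast-like shares 35.1% and 21.0%. In T or NK-like cells the thinned share was 0.735% and 1.61%, at medians of 2914.5 and 3021 UMIs before thinning. The near-empty barcodes (329 and 271 CPM) stood near the chondrocyte-like level and above the fibroblast-like level. C4a, a near-identical copy of C4b that mouse carries beside it, was read at 21.3 and 17.3 CPM in chondrocyte-like cells, and reads may have been split between the copies.

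C3 is the protein on which the arms of complement meet. Its level in fibroblast-like cells was 574 CPM in mouse 1 and 397 CPM in mouse 2. Chondrocyte-like cells were at 13.1 and 13.4 CPM, so that C3 and C4b had different leading classes. For C4b, fibroblast-like cells came second, and its difference between these classes was not called in the main test below. Fibroblast-like cells held 80.4% and 82.1% of the C3 UMIs. Neutrophil-like cells were also high, at 205 CPM in mouse 1 (107 UMIs in 155 cells) and 580 CPM in mouse 2, where only 15 UMIs in 9 cells were read. The unnamed myeloid cluster 26 stood at 273 and 433 CPM. A C3 UMI was read in 29.6% (28.3 to 31.0%) and 20.5% (19.2 to 21.8%) of thinned fibroblast-like cells (44.2% and 32.6% without thinning), and in 1.86% and 1.17% of thinned chondrocyte-like cells. Tenocyte-like cells, which carried the 5 fibroblast markers at 83.2% and 108% of the fibroblast-like level, held C3 at only 6.81% and 6.18% of it (39.1 and 24.5 CPM).

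**Figure D1:**
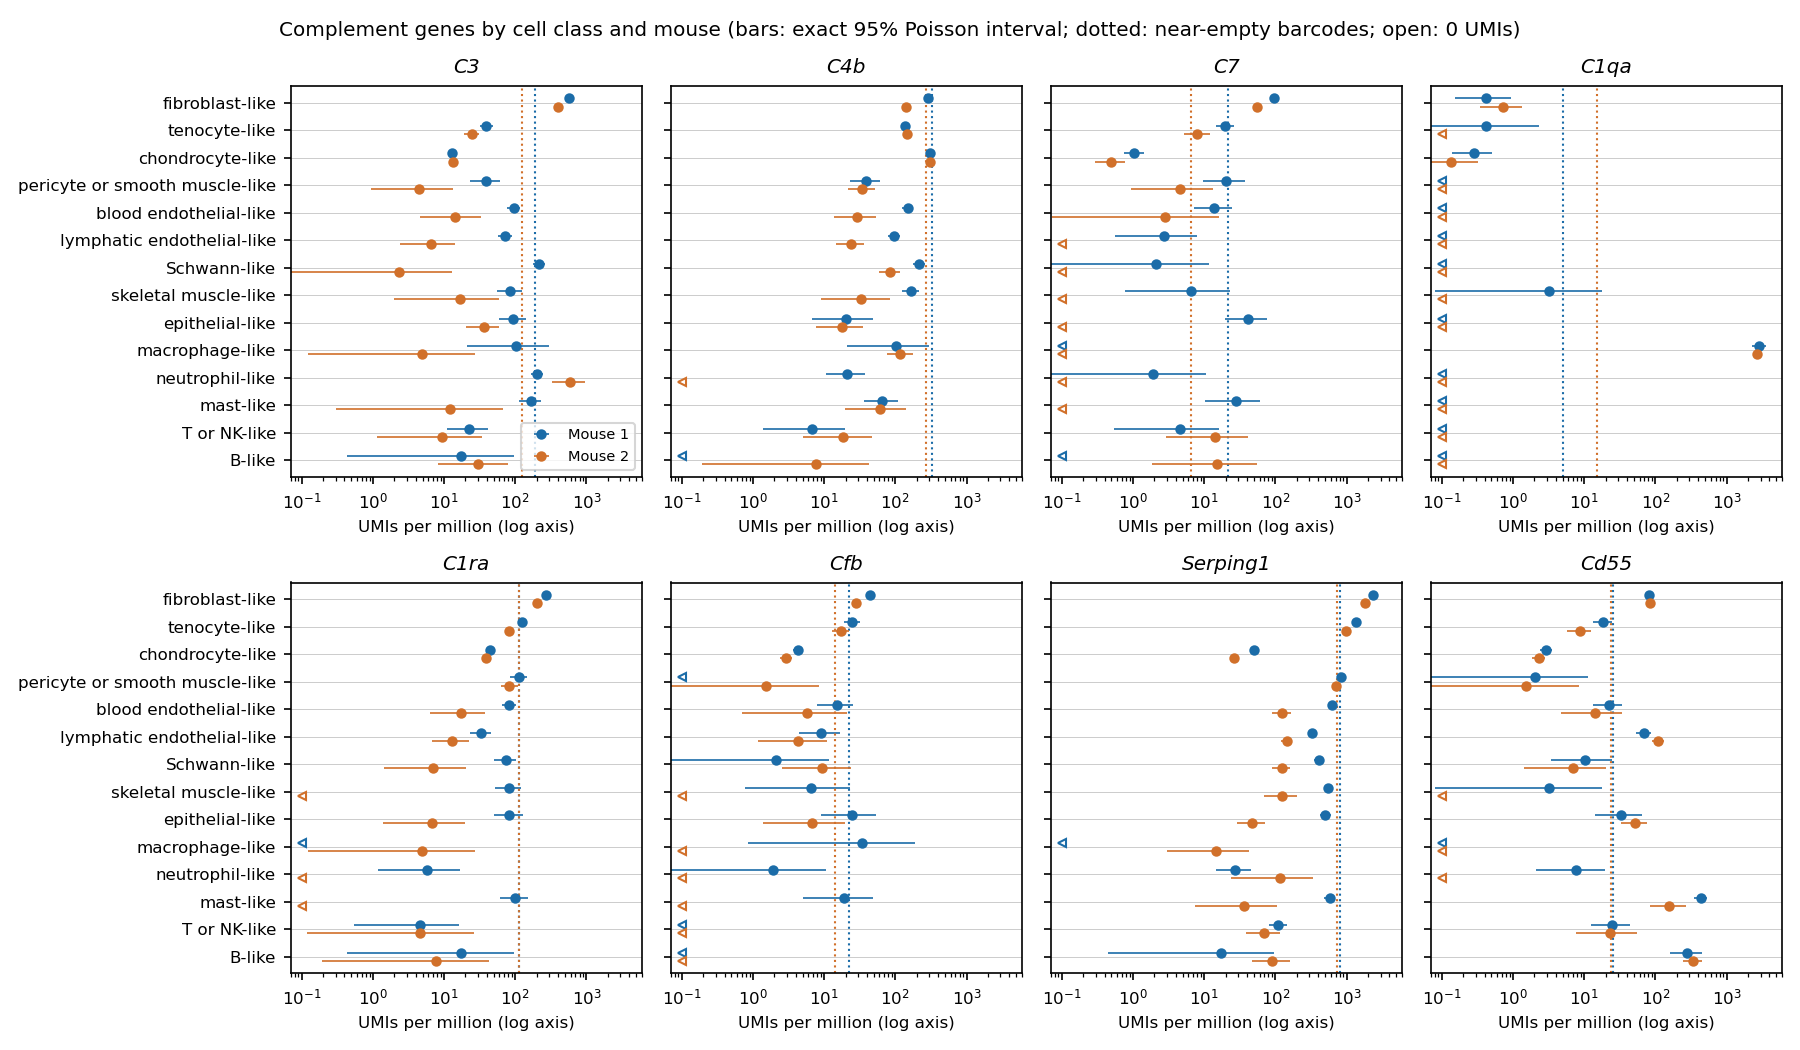
Levels of 8 complement genes by cell class in CPM on a log axis, with 1 point per mouse, bars for the exact 95% Poisson interval of the summed UMIs (counting error only), open triangles for 0 UMIs and dotted lines for barcodes of at most 50 UMIs. C3, C7, C1ra, Cfb and Serping1 were highest in fibroblast-like cells by the mean of the mice, C4b in chondrocyte-like, C1qa in macrophage-like and Cd55 in B-like and mast-like cells.

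The promoters below are shown because C3 and C1ra were both highest in fibroblast-like cells while Cd55, described further on, had a different order of classes. They are the 250 bases before the annotated start, 5′ to 3′ on the gene's strand, from RefSeq on GRCm38.p6, which is not the GRCm39 build of the count tables. Of the 9 members, 5 had an entry (C3, C7, C1ra, Cfd and Cd55). Capitals mark matches, on either strand and partly overlapping, to 4 short motifs. These were an interferon-type motif (GAAA, any 2 bases, GAAA), an NF-kB-type motif (GGG, any 5 bases, CC), a STAT-type motif (TTCNNNGAA) and a C/EBP-type motif (TTNCNNAA). NF-kB and C/EBP are transcription factors known to act in inflammation.
C3, chr17:57228137-57228386, minus strand: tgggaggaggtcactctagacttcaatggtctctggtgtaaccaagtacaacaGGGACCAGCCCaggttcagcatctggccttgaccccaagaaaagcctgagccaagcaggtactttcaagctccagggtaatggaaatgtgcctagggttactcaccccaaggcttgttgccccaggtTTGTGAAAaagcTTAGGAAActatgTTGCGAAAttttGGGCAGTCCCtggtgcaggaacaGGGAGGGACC
C1ra, chr6:124512371-124512620, plus strand: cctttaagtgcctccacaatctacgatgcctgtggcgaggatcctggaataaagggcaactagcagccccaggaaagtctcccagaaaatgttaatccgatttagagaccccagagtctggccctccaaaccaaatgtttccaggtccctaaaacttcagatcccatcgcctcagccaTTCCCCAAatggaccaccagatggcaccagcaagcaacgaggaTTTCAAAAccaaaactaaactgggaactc
Cd55, chr1:130462745-130462994, minus strand: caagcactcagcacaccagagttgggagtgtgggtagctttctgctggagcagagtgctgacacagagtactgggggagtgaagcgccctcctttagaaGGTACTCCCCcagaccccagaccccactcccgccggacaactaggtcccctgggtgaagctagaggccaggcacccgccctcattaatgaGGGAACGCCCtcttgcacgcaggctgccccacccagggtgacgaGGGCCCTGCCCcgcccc
The C3 promoter held 3 stretches of the NF-kB-type and 3 of the C/EBP-type motif, C1ra 2 of the C/EBP-type, and Cd55 3 of the NF-kB-type. Not printed are C7, also highest in fibroblast-like cells, and Cfd. The C7 entry held 2 stretches of the C/EBP-type and 1 of the STAT-type, and Cfd 1 of the NF-kB-type. The last bases of the C7 entry were not found in a transcript of that gene. Of the 32851 promoters in the table, 45.8% held the NF-kB-type motif, 36.8% the C/EBP-type, 7.02% the STAT-type and 2.98% the interferon-type, so the first 2 are common by sequence alone.

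Of the alternative arm, Cfb was low and Cfd was all but unread. Cfb, which encodes factor B, the protease that pairs with C3, was at 44.6 and 28.3 CPM in fibroblast-like cells and 24.8 and 17.4 CPM in tenocyte-like cells. Chondrocyte-like cells were at 4.29 and 2.90 CPM. A thinned fibroblast-like cell carried a Cfb UMI in 4.08% and 3.11% of cases. In the GRCm38 annotation Cfb overlaps a readthrough gene, Gm20547, on the same strand over 6107 bases, so its counts may be incomplete. Cfd encodes factor D (adipsin), a protease known from fat cells, and gave 4 UMIs in all cells of each mouse, or 0.0606 and 0.0635 CPM, with exact Poisson 95% intervals of 0.0165 to 0.155 and 0.0173 to 0.162 CPM. It gave 0 UMIs in the near-empty barcodes of both mice. Adipocyte markers were near 0 as well, at a sum of 1.39 and 1.90 CPM over 5 genes. The part of that in the low Cfd count was not tested. Properdin (Cfp), which stabilises the alternative convertase, was at 102 CPM (3 UMIs) and 294 CPM (60 UMIs) in macrophage-like cells.

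C7, which joins the growing membrane attack complex, was highest in fibroblast-like cells, at 95.8 CPM in mouse 1 and 55.2 CPM in mouse 2, and these held 77.4% and 80.7% of its UMIs. Epithelial-like cells were next by mean with 41.0 CPM (10 UMIs) in mouse 1 and 0 UMIs in mouse 2, and the tenocyte-like level was 19.8 and 8.07 CPM. In chondrocyte-like cells C7 was at 1.05 and 0.492 CPM, below the 21.3 and 6.54 CPM of the near-empty barcodes. A C7 UMI was read in 6.31% (5.60 to 7.07%) and 4.42% (3.76 to 5.15%) of thinned fibroblast-like cells. The other terminal components were sparse. Of the 7 in the list, Hc, which encodes C5, was at 10.8 and 5.17 CPM in chondrocyte-like cells and 0.496 and 0.145 CPM in fibroblast-like cells, and C8a and C8b gave 1 to 6 UMIs per mouse over all named classes. C9 was at 6.59 and 6.26 CPM in fibroblast-like cells.

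Serping1, the inhibitor of C1r and C1s, ran at 2383 CPM in mouse 1 and 1825 CPM in mouse 2 in fibroblast-like cells. Tenocyte-like cells followed with 1372 and 967 CPM, then pericyte or smooth muscle-like cells with 825 and 712 CPM. These 3 classes kept the same order in both mice. Chondrocyte-like cells held 49.6 and 26.4 CPM, and macrophage-like cells gave 0 UMIs in mouse 1 and 3 UMIs (14.7 CPM) in mouse 2. A Serping1 UMI was read in 81.1% (79.9 to 82.2%) and 74.7% (73.3 to 76.2%) of thinned fibroblast-like cells, 61.5% and 52.9% of tenocyte-like cells and 53.1% and 43.2% of pericyte or smooth muscle-like cells. In chondrocyte-like cells the share was 6.09% and 2.89%, and in T or NK-like cells 5.15% and 4.84%.

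Cd55 differed from the other members in its leading classes. B-like cells stood at 278 CPM (16 UMIs in 17 cells) and 334 CPM (44 UMIs in 40 cells), and mast-like cells at 433 CPM (92 UMIs in 64 cells) and 157 CPM (13 UMIs in 26 cells). The order of these 2 classes turned between the mice. Lymphatic endothelial-like cells (68.6 and 110 CPM) and fibroblast-like cells (80.7 and 82.8 CPM) followed and overlapped. Pericyte or smooth muscle-like cells gave 1 UMI in each mouse, and chondrocyte-like cells were at 2.93 and 2.30 CPM. The share of thinned cells with a Cd55 UMI was 28.1% (17.6 to 40.8%) and 19.2% (6.55 to 39.4%) in mast-like cells and 17.6% (3.80 to 43.4%) and 22.5% (10.8 to 38.5%) in B-like cells, so it turned between the mice as well, within wide intervals. By the same measure fibroblast-like cells were at 5.87% and 5.69% and T or NK-like cells at 2.21% and 1.61%. Mast-like cells also had the largest sums of 10 immediate early genes, 35267 and 42283 CPM, against 6462 and 4807 CPM in fibroblast-like cells. The part of that state in the Cd55 level was not tested. Cd55 has a near-identical copy, Cd55b (at most 32.9 CPM in a named class), and overlaps an antisense gene, Gm16083, by 169 bases. No source used here says whether strand was used in counting.

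The remaining regulators of the 52-gene complement list had orders of their own. Clusterin (Clu), a soluble inhibitor of the attack complex, was at 2029 and 2489 CPM in chondrocyte-like cells against 215 and 122 CPM in fibroblast-like cells, and it was highest by mean in tenocyte-like cells (1970 and 3137 CPM). Cd59a, which blocks C9 on the membrane, was highest in Schwann-like cells (263 and 280 CPM), as was Csmd1 (502 and 258 CPM). Vitronectin (Vtn) was highest in pericyte or smooth muscle-like cells (128 and 160 CPM). Receptors for the fragments that complement releases differed in their cells. C5ar1 was at 1224 and 1470 CPM in neutrophil-like cells and C3ar1 at 305 and 470 CPM in macrophage-like cells. For C5ar2, the other C5a receptor, chondrocyte-like cells gave 360 of the 393 UMIs of the named classes in mouse 1 and 244 of 267 in mouse 2 (9.19 and 6.67 CPM), and neutrophil-like cells gave 9 and 0 UMIs. Neutrophil-like cells held far fewer UMIs of all genes (522888 and 25852, against 39192702 and 36574757), so these counts do not rank the classes by level. By mean level macrophage-like cells were highest for C5ar2, at 0 and 19.6 CPM (0 and 4 UMIs). The near-empty barcodes stood at 5.00 and 6.09 CPM. By arm, all 10 classical genes and 5 of the 9 lectin genes had over 3 UMIs in both mice in at least 1 named class, as did 5 of the 7 terminal genes. The share of all genes past that number was not computed, so these counts say nothing particular to complement.

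Differences between classes were tested by edgeR's quasi-likelihood test on the summed UMIs, blocking on the mouse. Benjamini-Hochberg adjustment ran over the 6165 genes that were not used for clustering and passed the filter, and an adjusted p under 0.05 is a call. Each standard error (SE) below is approximate. It was computed back from the test, as the absolute log2 fold change divided by the square root of the F statistic. Of the 9 members, 7 passed the filter on low counts and C1qa and Cfd did not. The classes were built from other genes, yet a gene that varies with the clustering genes will differ between classes to some extent. In the main fit, the spread behind each test is the scatter left among 22 sums (11 classes in each mouse) after class and mouse were fitted. It is pooled over the classes, with 10 residual degrees of freedom. All sums come from the same 2 animals, so it is not a spread between independent animals.

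Between chondrocyte-like and fibroblast-like cells, 6 of the 7 tested members were lower and C4b was not called. Over all tested genes, 14.1% were lower and 15.8% higher, 30.0% in either direction. C7 differed most, at 1.05 and 0.492 CPM against 95.8 and 55.2 CPM, a log2 fold change of -6.52 ± 0.48 (SE, adjusted p = 1.46e-09 by edgeR). Serping1 had a log2 fold change of -5.77 ± 0.70 (adjusted p = 7.08e-07 by edgeR), C3 of -4.91 ± 0.71 (7.59e-06) and Cd55 of -4.83 ± 0.41 (3.95e-09). Cfb (-3.18 ± 0.35) and C1ra (-2.30 ± 0.52, adjusted p = 0.00128 by edgeR) were also lower. For C4b the value was 0.83 ± 0.46 with an adjusted p of 0.199, and the ratio within 1 mouse was 0.11 in mouse 1 and 1.11 in mouse 2 on the log2 scale. With only these 2 classes in the fit C4b was called higher (adjusted p = 3.48e-05 by edgeR). That fit rests on the sums of these 2 classes alone, and it called many more of all genes than the main fit. The C4b call there is thus not particular to C4b. Without the mouse as a block C1ra was not called (adjusted p = 0.0761 by edgeR). The median log2 fold change was -4.83 over the 7 members, -1.16 over the other list genes tested and -0.04 over all genes tested. Among the other 17 list genes tested, 7 were lower, including C1s1 (-2.97 ± 0.44), and 4 were higher, including Clu (4.05 ± 0.65, adjusted p = 3.10e-05 by edgeR) and the scavenger collectin Colec12 (1.37 ± 0.48, from 128 and 106 to 289 and 251 CPM).

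Between blood endothelial-like and fibroblast-like cells all 7 tested members were lower, where 6.18% of all genes tested were lower and 10.3% higher (16.5% in either direction). The members' median log2 fold change was -2.55, against -0.08 over all genes tested. Over the other 17 list genes tested the median was -0.12, with 3 higher, 4 lower and 10 not called. C3 stood at 95.1 and 14.3 CPM against 574 and 397 CPM (-3.68 ± 0.74, adjusted p = 9.36e-04 by edgeR). Serping1 stood at 615 and 123 CPM against 2383 and 1825 CPM (-3.10 ± 0.63, adjusted p = 9.73e-04 by edgeR). C7 (-3.35 ± 0.58), C1ra (-2.55 ± 0.59), Cd55 (-2.32 ± 0.47) and Cfb (-1.89 ± 0.49) followed. In mouse 2 the blood endothelial-like side gave only 1 UMI for C7, 2 for Cfb, 5 for Cd55 and 6 for C1ra. C4b was called narrowly, at 150 and 28.7 CPM against 285 and 142 CPM (-1.47 ± 0.50, adjusted p = 0.0464 by edgeR); without the shared barcodes its adjusted p was 0.0645, and over all the alternatives that ended the call it ran from 0.0645 to 0.261. The endothelial-like levels of C3, C4b, C7, C1ra and Serping1 in mouse 1 were several times those in mouse 2, as were the summed fibroblast markers there (12684 against 2915 CPM), whereas Cfb (15.1 against 5.74 CPM) and Cd55 (22.0 against 14.3 CPM) differed less. The part of those markers' source in the result was not tested. Without the mouse as a block 2 of the 7 members were called lower, where 218 of the 6165 genes tested were. Among other list genes, Cd59a (3.13 ± 0.46, 24.4 and 86.1 CPM) and Clu (2.11 ± 0.61) were higher, while C1s1 (-2.23 ± 0.47) was lower.

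Between pericyte or smooth muscle-like and fibroblast-like cells 5 of the 7 members were lower, where 8.22% of all genes tested were lower and 8.21% higher (16.4% in either direction). The median was -3.04 over the members and -0.05 over all genes tested. Over the other 17 list genes tested it was -0.10, with 5 higher, 3 lower and 9 not called. Cd55 (-5.80 ± 0.73), Cfb (-5.56 ± 0.84), C3 (-5.20 ± 0.83), C7 (-3.04 ± 0.55) and C4b (-2.71 ± 0.55) were called, the last at 38.6 and 34.6 CPM against 285 and 142 CPM. Few UMIs lay behind the pericyte or smooth muscle-like side. In mouse 1 and mouse 2, Cfb gave 0 and 1 UMIs there and Cd55 1 and 1. C3 gave 19 and 3 and C7 10 and 3, so the sizes of the changes of these genes are uncertain. Serping1 (-1.70 ± 0.59, adjusted p = 0.0504 by edgeR) and C1ra (-1.56 ± 0.55, adjusted p = 0.0524) fell just outside the threshold, and were called under 6 and 5 of the alternatives. Without the mouse as a block C3 was not called (adjusted p = 0.0518 by edgeR). Several list genes were higher in the pericyte or smooth muscle-like class: the lectin-arm recognition gene Colec11 (6.50 ± 0.69, 63.0 and 84.3 against 0.637 and 0.655 CPM), Vtn (3.58 ± 0.45), Cd59a (3.18 ± 0.45), Csmd1 (3.09 ± 0.42) and C2, the partner of C4 (1.52 ± 0.41, 58.9 and 81.3 against 25.1 and 16.1 CPM). These contrasts share the fibroblast-like sums, so their member values are set side by side and not counted as separate support.

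Between lymphatic and blood endothelial-like cells 1 member was called. Cd55 was higher in lymphatic cells, at 68.6 and 110 CPM against 22.0 and 14.3 CPM (2.24 ± 0.49, adjusted p = 0.00382 by edgeR), where 3.13% of all genes tested were higher and 6.33% lower (9.46% in either direction). The other 6 tested members had log2 values between -2.66 and -0.48 with adjusted p by edgeR from 0.135 to 0.732. The 2 classes overlapped for C3, C4b, C1ra, Cfb and Serping1. Susd4, another membrane regulator of complement, was higher in lymphatic cells too (52.2 and 75.6 against 6.96 and 20.1 CPM, 2.41 ± 0.57), while Vtn, C1s1, Cd59a and Clu were lower. Macrophage-like cells were not tested against fibroblast-like cells, since mouse 1 had 10 of them.

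**Figure D2:**
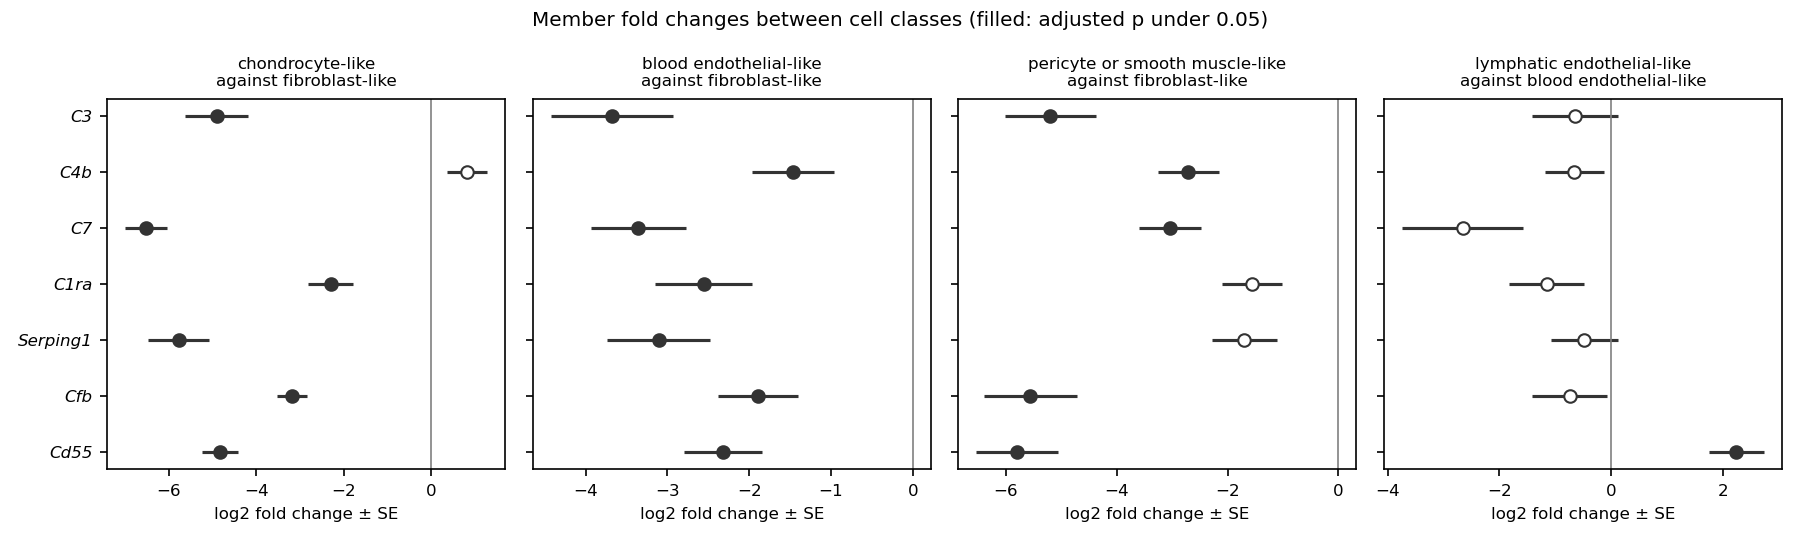
Log2 fold changes (points) with approximate standard errors computed back from the F statistic (bars) of the 7 tested members in 4 comparisons of cell classes. Points are filled where the adjusted p was under 0.05. In the first panel 6 members lie at -2.30 or below and C4b at 0.83; in the last panel Cd55 alone is filled, at 2.24.

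Levels outside fibroblast-like cells were set beside the 5 fibroblast markers (Col1a1, Col1a2, Dcn, Pdgfra, Lum) in the same cells, each as a percent of the fibroblast-like level of the same mouse. In blood endothelial-like cells the markers stood at 28.3% in mouse 1 and 7.02% in mouse 2, and Serping1 at 25.8% and 6.76% moved with them; the part of fibroblast RNA in those cells was not tested. Pericyte or smooth muscle-like cells carried the markers at 9.94% and 5.65%, whereas Serping1 was at 34.6% and 39.0% and C1ra at 41.8% and 41.4%. Both genes were thus several times above the marker level in pericytes, in each mouse. In chondrocyte-like cells the markers were at 13.0% and 15.4% while Serping1 was at 2.08% and 1.45% and C4b at 108% and 216%. Schwann-like cells of mouse 1 carried the markers at 22.6% and C3 at 38.1% (219 CPM), and those of mouse 2 the markers at 6.26% and C3 at 0.591% (1 UMI). C4b in the same Schwann-like cells was at 75.3% and 59.5%, above the markers in both mice.

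**Figure D3:**
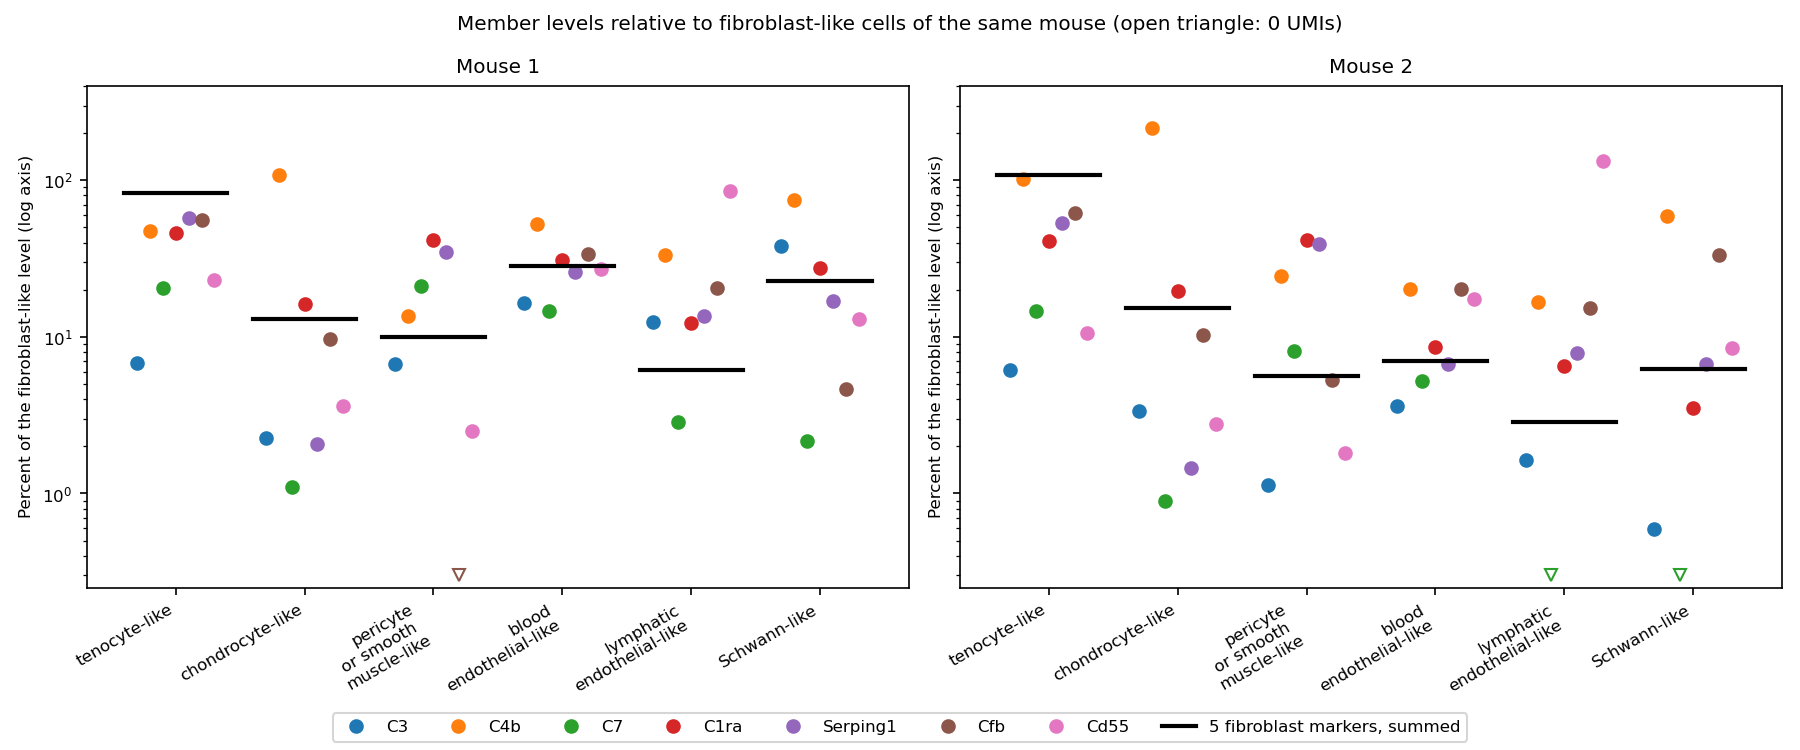
Level of 7 members in 6 classes as a percent of the fibroblast-like level of the same mouse (log axis), with a black line for the summed 5 fibroblast markers and open triangles for 0 UMIs. Serping1 and C1ra of pericyte or smooth muscle-like cells lie above the line in both mice; in blood endothelial-like cells Serping1 lies at the line in both.

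The 5 fibroblast-like clusters differed in their complement genes. Cluster 1 (1620 and 914 cells; leading genes Ifi205, Has1 and Ccl11) held C3 at 774 and 645 CPM, and cluster 5 (813 and 856 cells; Dpep1, Inmt, Scara5) at 674 and 540 CPM. Cluster 6 held 541 and 270 CPM, and clusters 4 and 15 were lower, at 169 and 100 CPM and at 162 and 176 CPM. Cluster 1 also had by far the largest sum of 10 inflammatory genes such as Cxcl1, Ccl2 and Il6, at 13619 and 9796 CPM, while cluster 5 had the smallest, 480 and 421 CPM. In cluster 6 the sum was 2001 and 1427 CPM. The 2 clusters highest in C3 in mouse 1 and in mouse 2 thus had the largest and the smallest inflammatory sum, with cluster 6 between them. Immediate early genes, which can rise during tissue digestion, summed to 8726 and 7641 CPM in cluster 1 and 2145 and 2157 CPM in cluster 5.

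C7 and C1ra were highest in cluster 5, where C7 was at 213 and 102 CPM against 66.6 and 34.0 CPM in cluster 1, and C1ra at 362 and 269 CPM against 253 and 217 CPM. Cluster 15 (158 and 157 cells; Ccn3, Sbsn, Sfrp4) had the lowest C7 (30.2 and 14.0 CPM), C4b (53.9 and 16.3 CPM) and Cfb (12.9 and 5.43 CPM) of the 5 clusters in both mice. The same cluster had the highest Cd55, at 296 and 203 CPM, with the other 4 between 49.7 and 104 CPM. Its cells were the deepest of the 5 (medians of 5383.5 and 7370 UMIs). Serping1 varied least, by 1.68 times in mouse 1 and 1.86 times in mouse 2 between the highest and lowest cluster, against 4.79 and 6.43 times for C3 and 7.06 and 7.27 times for C7. The unnamed clusters 7 (led by Cilp, Acta2 and Postn) and 8 (Cilp, Thbs4, Mmp3) were within the fibroblast-like range for Serping1, at 1914 and 1654 CPM and at 2154 and 1903 CPM. These cluster values are descriptions of cells grouped by other genes, with no test.

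Among the 5 chondrocyte-like clusters C4b was uneven too. Cluster 0 (1448 and 1151 cells; Acan, Chad, Col8a1) held 493 and 466 CPM and gave 7240 of the 12111 chondrocyte-like C4b UMIs of mouse 1 and 8000 of the 11236 of mouse 2. Clusters 2, 3 and 10, with Col2a1 and Ibsp among their leading genes, ranged from 141 to 215 CPM. Cluster 11 held 257 CPM in mouse 1 and 486 CPM in mouse 2, and was shallow (medians of 1654 and 3272 UMIs against 9490 and 13965 in cluster 0). The level of C4b in cluster 0 was above that of each fibroblast-like cluster in both mice.

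**Figure D4:**
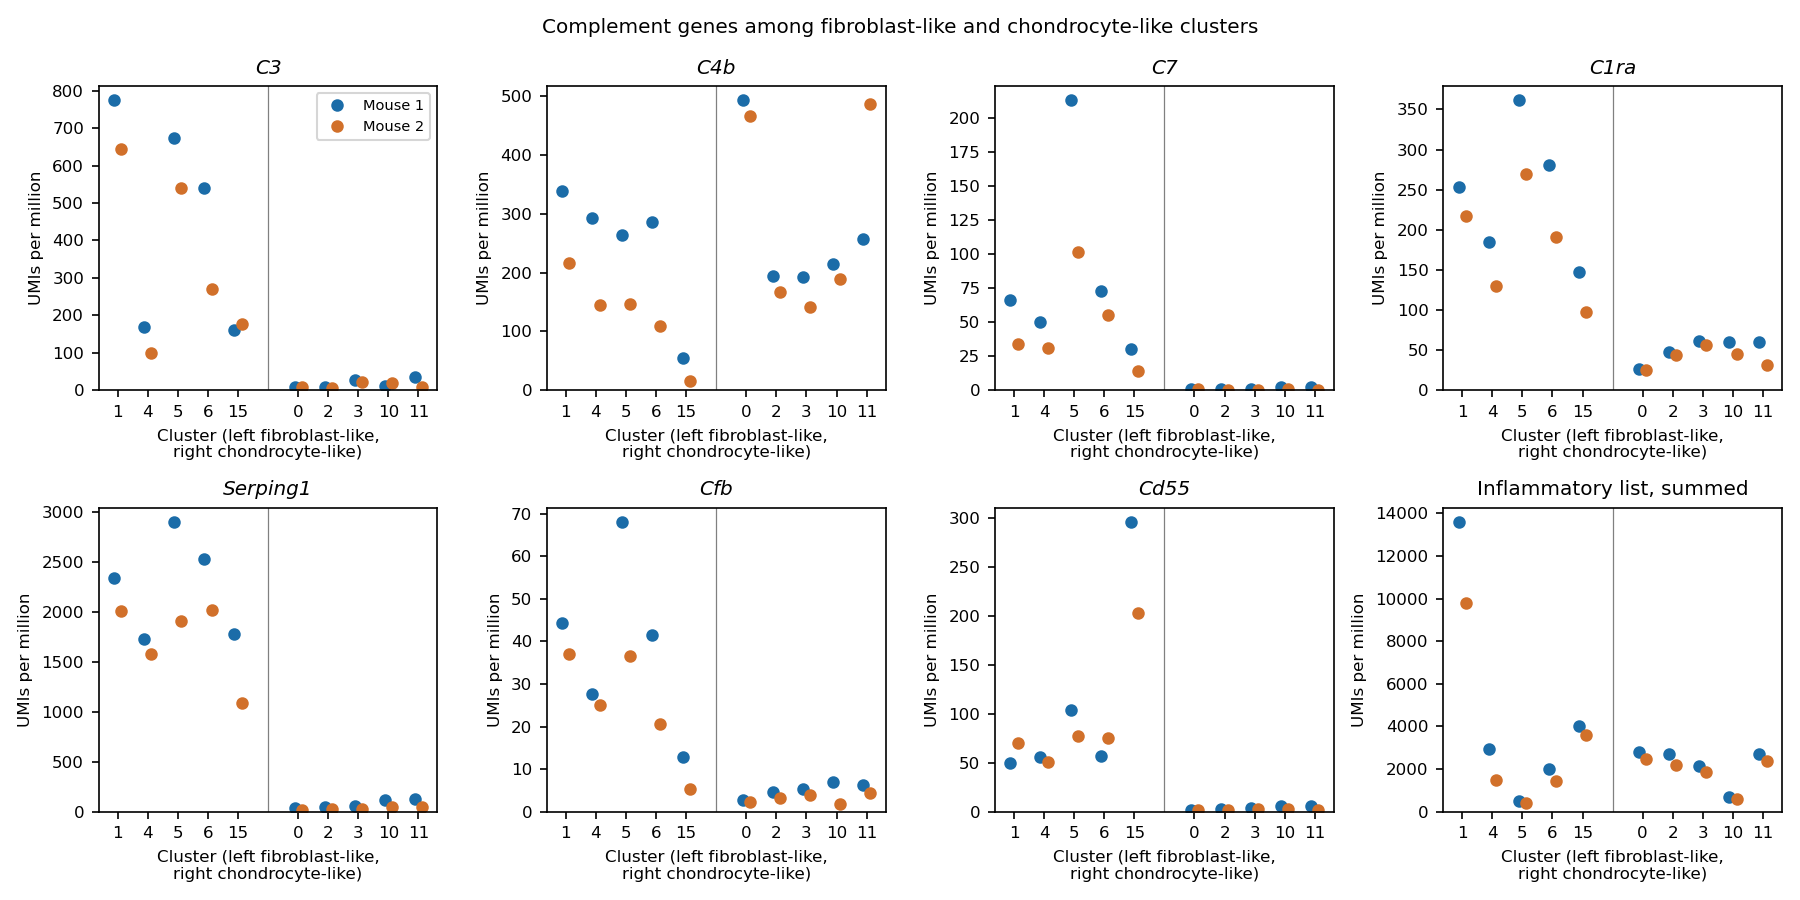
Levels of 7 members, and the sum of 10 inflammatory genes, in CPM in each fibroblast-like (1, 4, 5, 6, 15) and chondrocyte-like (0, 2, 3, 10, 11) cluster, with 1 point per mouse. C3 is high in clusters 1 and 5 while the inflammatory sum is high in cluster 1 and lowest in cluster 5, Cd55 is highest in cluster 15, and C4b is highest in cluster 0 in mouse 1 and in clusters 0 and 11 in mouse 2.

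Fibroblast-like cells thinned to 1000 UMIs often carried several members at once. On average 1.68 members were read per cell in mouse 1 and 1.35 in mouse 2, and 20.2% and 10.6% of the cells carried 3 or more. In chondrocyte-like cells the averages were 0.330 and 0.298. C3 and C4b were read together in 377 fibroblast-like cells of mouse 1, where the product of their shares gives 258, and in 143 cells of mouse 2, where it gives 73.9. C3 and Cfb were together in 80 and 45 cells against products of 52.7 and 22.5. C3 and Cd55 were together in 74 and 29 cells, against 75.9 and 41.1. Cells of the 5 clusters are pooled here, so the differences between clusters enter these counts.

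Across the 29 clusters, each the mean of both mice on log2(CPM + 1), C1ra and Serping1 had a Pearson r of 0.85, C7 and Serping1 of 0.84, and C3 and C4b of 0.05. The clusters share the 2 libraries, and r is a description. Among 14616 genes of at least 20 CPM in a cluster, the 3 most like C3 were Ifi205 (r = 0.82), Pi16 and Mgst1, and those most like C7 were Clec3b (0.89), Cd248 and Col14a1. For C1ra they were C1s1 (0.96), Fstl1 and C1rb, for Serping1 Cygb (0.97), Rarres2 and Lrrc61, and for C1qa C1qb (0.98), Ccl24 and Aif1. For C4b they were its copy C4a (0.91), Ghr and Mir100hg, and for Cd55 they were Gm15675 (0.89), Cd55os and the copy Cd55b. Cfb was most like an unnamed gene, ENSMUSG00000120849 (0.85), then Sult5a1 and Clmp. Cfd was under 20 CPM in every cluster and was not compared.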

How the data were processed

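Droplet libraries of 2 mice were analysed, and the 9 genes and all gene lists were chosen with earlier results of these data known. The deposited tables hold whole-number counts per gene and barcode, not normalized, taken here as UMI counts. STAR, Cell Ranger 7.0.0 and GRCm39 are named, without roles, per the submitters' processing notes, and no source used here names the annotation. Cells were called here: at least 1000 UMIs, at least 300 genes and at most 15% mitochondrial UMIs. Scrublet called 0 and 1 doublets, so the highest-scoring barcodes were removed at 0.8% per 1000 cells (1599 and 750). The kept cells held 65954668 and 63034633 UMIs, and intervals cover counting error only.

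Genes were split by a hash of their identifier. Clusters (scanpy 1.11.5, Leiden resolution 1, 2000 variable genes, 30 components, 15 neighbours) used 27537 genes, markers among them; 29416 genes, the complement genes among them, were held out. A cluster was named when its markers stood at least 1.5 (log2) over the other clusters with a lead of 0.25 over the next list, and 3 markers were read in 10% of cells. It stayed unnamed if its 10 leading clustering genes held more markers of another list than of its own. The same held for a shallow cluster with none of its own markers among those genes. One mixed cluster was re-clustered at resolution 0.5; these naming thresholds were set after seeing the clusters. Sums per mouse and class, for the 11 classes with at least 20 cells in both mice, were tested with edgeR 4.0.16 (TMM, filterByExpr, robust quasi-likelihood, mouse as a block; 12111 genes in the fit, 10 residual degrees of freedom). Mouse deviations correlated between classes (over 0.1 in 54 of 55 pairs). Alternatives changed the UMI minimum, cell filters, doublets, resolution, scaling, the count filter, the classes in the fit, the block, DESeq2 1.42.0, and, chosen after seeing the data, the shared barcodes. The fit was tested on simulated data. Named genes were the members, list genes called at 0.05 with at least 50 CPM in a class compared, list genes of at least 50 CPM in any class, and the 3 genes most like each member; a few list genes below these limits were named after their values were seen. One gene of the complement list is not reported here.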

Additional observations from a re-analysis of the deposited data

Results flagged for a closer look

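Barcodes of at least 100 and under 1000 UMIs entered no comparison, and 8 of the 9 genes had over 3 UMIs there in both mice. The share of all genes past that number was not computed, so the count describes these barcodes and says nothing particular to the members. Serping1 stood at 823 and 763 CPM in them, C4b at 275 and 194 CPM, C3 at 234 and 124 CPM and C1ra at 117 and 97.6 CPM, and Cfd gave 0 UMIs. The C3 level of mouse 1 was above that of its near-empty barcodes (188 CPM), and that of mouse 2 was close to it (123 CPM).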

How the results depend on the processing

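The number of members called stayed within 1.5 times in all comparisons except as follows. Without the replicate block, 2 members in place of 7 were lower in blood endothelial-like than in fibroblast-like cells; C1ra in chondrocyte-like (adjusted p = 0.0761 by edgeR) and C3 in pericyte or smooth muscle-like cells (0.0518) also lost their calls. With at least 2000 UMIs per cell, 1 member (C4b) was lower in lymphatic than in blood endothelial-like cells, in place of 0. With only the 2 classes compared in the fit, C4b was called higher in chondrocyte-like cells (0.80, adjusted p = 3.48e-05 by edgeR), 1 member in place of 0. For all genes tested, calls between chondrocyte-like and fibroblast-like cells went from 1847 to 3029 without the count filter, where more genes are tested, and to 5944 with only the 2 classes. Between pericyte or smooth muscle-like and fibroblast-like cells they went from 1013 to 552 with doublets kept and to 1842 with only the 2 classes. Between lymphatic and blood endothelial-like cells they went from 583 to 357 without the gene, mitochondrial and doublet filters, to 354 with doublets kept and to 335 without the replicate block; the cause of these changes was not tested. Serping1 and C1ra were called lower in pericyte or smooth muscle-like cells under 6 and 5 of the alternatives. No called difference changed sign under an alternative or in either mouse alone; tests with 1 mouse left out have no residual freedom within a class and were not made. The number of members highest in fibroblast-like cells, among classes with at least 20 cells in both mice, was 5 under every alternative that changed the cells or clusters, and 5 and 7 in a single mouse, the 7 counting C1qa and Cfd, which were near 0 in all these classes. Macrophage-like cells numbered 10 and 46, which limits every statement on C1qa to counts and intervals, and with at least 2000 UMIs a wider macrophage-like class held C1qa at a mean of 780 CPM.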
